A study of Mus musculus with 16 samples.

Results

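The 49 transcripts described here encode the machinery that copies DNA before a cell divides. They were taken from a list of gene symbols, and no cut-off on a measured value was applied. The list was chosen with earlier results of these data known. All 49 were found among the 39057 genes of the count table, of which 39056 are mouse genes and 1 is human *APOE*. They were grouped by the step at which their products act. Origin licensing had 12 genes, origin firing 8, the DNA polymerases and primase 9, the sliding clamp with strand binding and joining 11, nucleotide supply 5, and chromatin assembly with the copying of DNA methylation 4.

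DNA replication begins at origins that are prepared before S phase. The origin recognition complex (the Orc proteins), Cdc6 and Cdt1 load a ring of Mcm2 to Mcm7 onto DNA, and geminin, the product of Gmnn, blocks Cdt1 so that origins are not loaded again. The kinase Cdc7 with its activator Dbf4, together with Mcm10, Cdc45 and the GINS complex, then turns that ring into a moving helicase, behind which the polymerases, the Pcna clamp and DNA ligase I make the new strands. Many of these genes are known targets of E2F transcription factors, which turn them on as a cell commits to S phase. Endothelial cells of a mature brain divide rarely, whereas the same cells divide in culture until they cover the dish.

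Endothelial cells isolated from mouse brain were grown as 16 primary cultures and their RNA was sequenced, to ask how human *APOE* genotype shapes these cells. The 8 *APOE3* and 8 *APOE4* cultures each came from the cortex of 1 mouse aged 21 to 28 days, and in both groups a human *APOE* isoform stands in place of the mouse gene in the whole animal, under the mouse promoter. All cultures shared a selection in 8 µg/ml puromycin, reached confluence before RNA was taken, and were otherwise untreated, so no group without human *APOE* was compared here. Libraries are named by genotype and number, with *APOE3* 25 to 28 and *APOE4* 35 to 38 from males, and *APOE3* 30 to 33 and *APOE4* 39, 40, 41 and 43 from females.

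Libraries held 12717847 to 18624417 counts, and counts of a member ran from 25 (Orc1) to 4643 (Dnmt1). Levels are given in CPM, the counts of a gene scaled by TMM to a common library size, and the test of *APOE4* against *APOE3* was edgeR's quasi-likelihood F over 12481 genes, in which a gene is called higher or lower in *APOE4* at an adjusted p under 0.05. The 14 brain endothelial markers summed to 15574 to 16561 CPM in *APOE3* and 15346 to 16774 CPM in *APOE4* libraries, led by Pecam1, and 1 of the 14, Emcn, was called higher in *APOE4*. The 8 pericyte and smooth muscle markers summed to 187 to 352 and 221 to 338 CPM, mostly Tagln, a smooth muscle gene. Of these markers Rgs5, Kcnj8 and Abcc9 were under 1 CPM in every library. The other 5, Pdgfrb and Cspg4 among them, were not, so this list does not show that pericytes were absent. Fibroblast markers, led by Col1a2, summed to 12.5 to 60.5 CPM in *APOE3* and 8.49 to 77.1 in *APOE4* libraries. Astrocyte markers, nearly all Gja1, summed to 31.9 to 41.7 and 33.4 to 43.4 CPM. Neuron markers, led by Tubb3, summed to 8.38 to 12.0 and 9.96 to 14.3 CPM. Of these lists, Dcn, Lum, Aqp4, Gfap, Slc1a3, Snap25 and Syt1 were under 1 CPM in every library, and the other genes were not. Summed microglia and macrophage markers, led by Csf1r, reached at most 0.792 CPM. None of the tested pericyte, fibroblast, astrocyte and neuron markers was called, no microglia marker passed the filter on low counts, and the part of these cells in the results below was not tested.

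The sequences just upstream of the start sites of the members were searched for the words that E2F factors bind. Many members are known E2F targets, so a share over all their windows reflects the list and does not bear on genotype. RefSeq promoter windows on GRCm38.p6, each with 250 bases before and 50 bases after a gene's start, were matched to 41 of the 49 members, as 51 windows. The E2F words TTTCCCGC, TTTCGCGC, TTTGGCGC and TTTGCCGC, read on both strands and allowed to overlap, stood in 16 of the 51 member windows (31.4%) and in 744 of all 32851 windows (2.26%). The CCAAT word, bound by NF-Y, stood in 29 member windows (56.9%) and 37.4% of all windows. The short words TTTGAA and TTCGAA, known from promoters of mitotic genes, stood in 21.6% of member windows and 19.2% of all windows.

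A few windows are printed below with every E2F word in capitals, 5′ to 3′ along the gene. Orc1 had the largest change of the members, Mcm6 had 3 E2F words and rose, Mcm5 had 2 overlapping words and was not called, and Rrm2 had none and rose.
Orc1, chr4:108579204-108579503, plus strand: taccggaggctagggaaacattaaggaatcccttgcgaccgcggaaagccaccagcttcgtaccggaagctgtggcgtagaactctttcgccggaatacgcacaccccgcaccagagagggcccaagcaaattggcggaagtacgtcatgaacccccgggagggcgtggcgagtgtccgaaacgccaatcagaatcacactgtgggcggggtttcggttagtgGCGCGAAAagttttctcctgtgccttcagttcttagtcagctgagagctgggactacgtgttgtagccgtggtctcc
Mcm6, chr1:128359656-128359955, minus strand: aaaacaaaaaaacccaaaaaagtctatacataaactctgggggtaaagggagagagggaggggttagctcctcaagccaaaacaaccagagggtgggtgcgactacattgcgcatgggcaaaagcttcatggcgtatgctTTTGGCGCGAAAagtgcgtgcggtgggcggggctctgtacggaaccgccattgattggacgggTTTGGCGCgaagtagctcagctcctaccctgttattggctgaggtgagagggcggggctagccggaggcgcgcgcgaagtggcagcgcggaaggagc
Mcm5, chr8:75109259-75109558, plus strand: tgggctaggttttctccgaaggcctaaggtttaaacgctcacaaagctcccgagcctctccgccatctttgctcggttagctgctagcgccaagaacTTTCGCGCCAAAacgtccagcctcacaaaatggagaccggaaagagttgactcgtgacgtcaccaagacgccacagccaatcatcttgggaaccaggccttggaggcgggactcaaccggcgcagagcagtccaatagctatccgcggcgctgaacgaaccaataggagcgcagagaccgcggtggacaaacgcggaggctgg
Rrm2, chr12:24708004-24708303, plus strand: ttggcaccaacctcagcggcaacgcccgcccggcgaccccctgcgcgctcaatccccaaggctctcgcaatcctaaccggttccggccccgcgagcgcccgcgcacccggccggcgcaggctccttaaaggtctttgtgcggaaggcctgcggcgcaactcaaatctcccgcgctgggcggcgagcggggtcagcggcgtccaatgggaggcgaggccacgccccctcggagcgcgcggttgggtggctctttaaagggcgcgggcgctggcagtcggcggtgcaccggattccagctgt

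E2F words stood in the windows of 9 of the 22 matched members that were called higher in *APOE4* and of 7 of the 19 that were not called. Of the 16 genes with a word, the median log2 fold change was 0.32 with a range from 0.03 to 0.55. Of the 25 genes whose windows held no word, the median was 0.28 with a range from -0.01 to 0.51. In Mcm6 the words begin at -110, -106 and -47 from the start, and in Orc1 the word begins at -27. These matches are a description of letters in a short window and do not show that a factor binds there.

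Each step of replication held transcripts that were higher in *APOE4* brain endothelial cells, by modest amounts. Of the 49 members, 27 were called higher, 0 were called lower and 22 were not called, whereas over all genes tested 6.71% were called higher and 6.09% lower. Log2 fold changes ran from -0.01 (Orc2) to 0.55 (Orc1, 1.46-fold) with a median of 0.30, beside a median of -0.0002 over all genes tested. They were above 0 for 47 members, compared with 49.9% of all genes, and 40 members had an unadjusted p under 0.05, compared with 29% of all genes. In RNA from whole cultures, a larger share of replicating cells and more RNA in each of them cannot be told apart. For confluent cultures, the paper reported that cell density and bromodeoxyuridine labelling, its measure of proliferation, did not differ by genotype. How those measurements relate to the RNA values here was not tested. No member separated the genotypes without overlap, as 0.625% of all genes did. In 30 members the lowest *APOE4* library exceeded the *APOE3* median, and the share of all genes with this pattern was not computed.

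The steps differed in how many members were called. Nucleotide supply had 4 of 5 called higher (median log2 fold change 0.41), chromatin and methylation 3 of 4 (0.31), origin licensing 7 of 12 (0.31), origin firing 4 of 8 (0.43), clamp, strand binding and joining 5 of 11 (0.26), and DNA polymerases 4 of 9 (0.17). No test was made of these steps against each other. The number of members called was sensitive to single libraries, falling to 9 without *APOE4* 41, 10 without *APOE3* 30, 12 without *APOE3* 33, 12 without *APOE4* 35, 14 without *APOE3* 26 and 15 without *APOE3* 28. Mcm3, Mcm10, Dbf4, Pole, Pcna, Rrm1, Rrm2, Tyms and Dnmt1 were called in all 16 fits that each left out 1 library. The call of the other 18 called members held in 4 (Fen1) to 14 (Lig1) of these fits, and that of Orc1 in 9.

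**Figure D1:**
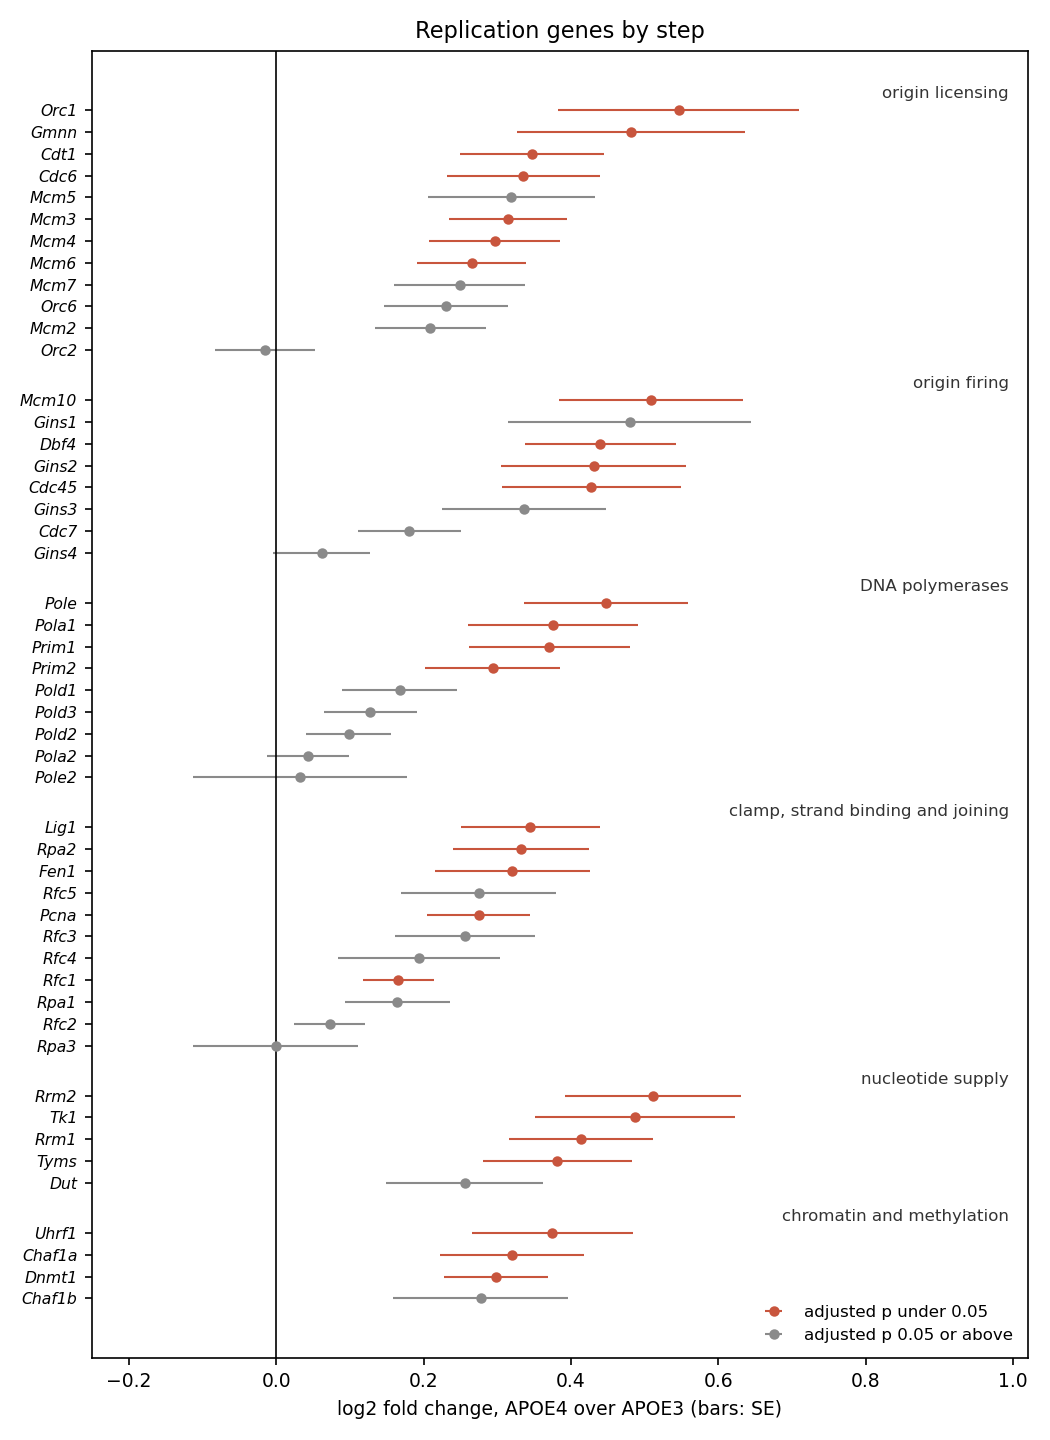
Log2 fold change of each of the 49 replication genes, *APOE4* over *APOE3*, with its standard error as a bar, grouped by step and ordered by size. The 27 called genes (red) sit in all 6 steps, and Orc2, Gins4, Pola2, Pole2 and Rpa3 lie near 0.

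Among the licensing genes, Orc1 changed most and Orc2 least. Orc1 (chromosome 4 from 108579423 to 108614833, GRCm38), the subunit whose level is known to follow the cell cycle, had a lowest, median and highest level of 1.68, 3.49 and 4.55 CPM in *APOE3* and of 3.96, 4.79 and 7.23 CPM in *APOE4* libraries. Of the *APOE4* libraries, 4 of 8 lay above the highest *APOE3* library, and the change on the log2 scale was 0.55 (SE 0.164, edgeR adjusted p = 0.0339). Orc2 (chromosome 1 from 58462771 to 58505109), a core subunit, had 14.7, 16.5 and 18.9 CPM in *APOE3* and 14.2, 16.5 and 18.2 CPM in *APOE4* libraries. The genotypes overlapped fully for Orc2, with a change of -0.01 on the log2 scale (SE 0.0677, adjusted p = 0.914 by edgeR). A stretch of 29.8% of its exon bases is shared with Nif3l1 on the opposite strand, and whether reads were counted by strand is not given in the sources used here. Orc6, which helps to load the Mcm ring, had a log2 fold change of 0.23 (adjusted p = 0.0725).

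The loading factor Cdt1 and its inhibitor Gmnn both rose. Cdt1 (chromosome 8 from 122568015 to 122573554) had 17.8, 24.9 and 33.3 CPM in *APOE3* and 27.4, 30.7 and 40.9 CPM in *APOE4* libraries, and all 8 *APOE4* libraries exceeded the *APOE3* median (0.35 on the log2 scale, SE 0.0978, adjusted p = 0.0260). Gmnn (chromosome 13 from 24751845 to 24761923) had 7.28, 9.87 and 17.2 CPM in *APOE3* and 11.1, 14.4 and 20.8 CPM in *APOE4* libraries (0.48 on the log2 scale, SE 0.155, adjusted p = 0.0451). With a library left out, Gmnn was still called in 6 of 16 fits. Cdc6, the partner of Cdt1 in loading, rose from 16.4 ± 2.83 to 20.6 ± 3.22 CPM (SD, n = 8; edgeR adjusted p = 0.0387).

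The 6 subunits of the Mcm ring moved within a narrow span, with log2 fold changes from 0.21 (Mcm2) to 0.32 (Mcm5). Mcm3 (0.31, adjusted p = 0.0169), Mcm4 (0.30, adjusted p = 0.0345) and Mcm6 (0.27, adjusted p = 0.0247) were called higher, and Mcm2, Mcm5 and Mcm7 were not, with adjusted p values of 0.0704, 0.0675 and 0.0685. Mcm2 (chromosome 6 from 88883474 to 88898780) had 72.5, 89.7 and 101 CPM in *APOE3* and 87.6, 95.5 and 130 CPM in *APOE4* libraries, with 2 *APOE4* libraries above the *APOE3* range. All 6 had an unadjusted p under 0.05, so the ring is divided here by the threshold and not by a test between its subunits. Of the 50-base stretches in Mcm7 transcripts, 23.3% also occur in other genes, Gm5487 among them.

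Origin firing factors held some of the larger changes. Mcm10 (chromosome 2 from 4989714 to 5012791), which helps to activate the loaded ring, had 9.07, 13.1 and 17.5 CPM in *APOE3* and 14.7, 17.1 and 24.1 CPM in *APOE4* libraries (0.51 on the log2 scale, SE 0.126, adjusted p = 0.0143). All 8 *APOE4* libraries were above the *APOE3* median, and 4 were above every *APOE3* library. Dbf4, the activating subunit of the firing kinase, rose from 15.4 ± 2.34 to 20.9 ± 3.37 CPM (log2 fold change 0.44, adjusted p = 0.0113), and 7 of 8 *APOE4* libraries exceeded the highest *APOE3* library. Its catalytic partner Cdc7 was not called (0.18, adjusted p = 0.0924). Cdc45, a part of the moving helicase, rose by a log2 fold change of 0.43 (adjusted p = 0.0275).

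The GINS complex, the third part of that helicase, had 4 subunits with unequal values. Gins2 was called higher (0.43, adjusted p = 0.0302), although 67.3% of its exon bases lie opposite Gse1. Gins1 (0.48, adjusted p = 0.0594) and Gins3 (0.34, adjusted p = 0.0515) missed the threshold, and Gins1 had counts of only 32 to 76. Gins4 (chromosome 8 from 23226616 to 23237659) had 17.6, 20.4 and 23.9 CPM in *APOE3* and 19.8, 20.5 and 25.7 CPM in *APOE4* libraries. The medians of Gins4 nearly coincide, and its change on the log2 scale was 0.06 (SE 0.0657, adjusted p = 0.577 by edgeR). In CPM per kilobase of exon, Gins4 was the most abundant of the complex at 15.6, with the other subunits from 2.33 to 4.76.

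Of the polymerase and primase subunits, 4 of 9 were called higher. Pole (chromosome 5 from 110286306 to 110337474), the catalytic subunit of the leading strand polymerase, had 29.5, 42.0 and 58.0 CPM in *APOE3* and 47.2, 54.6 and 77.6 CPM in *APOE4* libraries. No *APOE4* library fell to the *APOE3* median or below, and the change on the log2 scale was 0.45 (SE 0.111, edgeR adjusted p = 0.0148). Its partner subunit Pole2 (chromosome 12 from 69201773 to 69228195) had 3.69, 5.07 and 6.83 CPM in *APOE3* and 3.79, 4.84 and 6.58 CPM in *APOE4* libraries. For Pole2 the genotypes overlapped fully (0.03 on the log2 scale, SE 0.145, adjusted p = 0.913), with counts of 55 to 117. Of the polymerase epsilon subunits outside the list, Pole3 was called higher (0.20, edgeR adjusted p = 0.038) and Pole4 was not (0.11). The call of Pole3 held in 8 of 16 fits that left out a library.

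Polymerase delta, which makes the lagging strand, had 0 of 3 listed subunits called. Log2 fold changes were 0.17 for Pold1 (adjusted p = 0.161), 0.13 for Pold3 (adjusted p = 0.186) and 0.10 for Pold2 (adjusted p = 0.276). In the polymerase alpha and primase complex, which lays the first primer, Pola1 (0.38, adjusted p = 0.0375), Prim1 (0.37, adjusted p = 0.0311) and Prim2 (0.29, adjusted p = 0.0395) rose. The fourth subunit, Pola2, went from 39.7 ± 3.54 to 40.9 ± 2.97 CPM (0.04, adjusted p = 0.649). The call of Pola1 held in 8, of Prim1 in 9 and of Prim2 in 6 of the 16 fits that left out a library.

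At the clamp step, Lig1, the ligase that joins lagging strand fragments, had the largest change and Rpa3, the small subunit of the single-strand binding complex, the smallest. Lig1 (chromosome 7 from 13277283 to 13311433) had 54.2, 70.9 and 83.8 CPM in *APOE3* and 73.2, 83.4 and 117 CPM in *APOE4* libraries (0.34 on the log2 scale, SE 0.0944, adjusted p = 0.0232). Rpa3 (chromosome 6 from 8255936 to 8259173) had 6.00, 7.46 and 9.25 CPM in *APOE3* and 5.44, 7.90 and 9.61 CPM in *APOE4* libraries, with a change of -0.0009 on the log2 scale (SE 0.112, adjusted p = 0.997 by edgeR). The *APOE4* libraries thus spanned the whole *APOE3* range for Rpa3. For Lig1 all 8 lay above the *APOE3* median, and 4 lay above the highest *APOE3* library. Pcna (chromosome 2 from 132249162 to 132253314), the sliding clamp itself, had 73.6, 88.0 and 107 CPM in *APOE3* and 90.7, 103 and 125 CPM in *APOE4* libraries (log2 fold change 0.27, adjusted p = 0.0164). Of its 50-base stretches, 19.1% occur also in the pseudogene Pcna-ps2.

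Of the clamp loader, Rfc1 alone was called, with the tightest spread among *APOE3* libraries of any member. It went from 49.3 ± 2.39 to 55.3 ± 4.59 CPM (log2 fold change 0.17, adjusted p = 0.0301). Rfc2, Rfc3, Rfc4 and Rfc5 had log2 fold changes of 0.07, 0.26, 0.19 and 0.28 and adjusted p values of 0.341, 0.0775, 0.253 and 0.0875. Rpa2, a further single-strand binding subunit, rose (0.33, adjusted p = 0.0249), whereas Rpa1, the largest, was not called (0.16, adjusted p = 0.132). Fen1, the flap nuclease that trims lagging strand fragments, was called narrowly (0.32, adjusted p = 0.0488), in 4 of 16 fits that left out a library, and 78.8% of its exon bases lie opposite Gm10143.

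Nucleotide supply was the step with the largest share of genes called. Rrm2 (chromosome 12 from 24708241 to 24714146), the small subunit of ribonucleotide reductase, had 50.7, 71.2 and 103 CPM in *APOE3* and 80.5, 99.1 and 132 CPM in *APOE4* libraries (0.51 on the log2 scale, SE 0.119, adjusted p = 0.0117). Rrm1 (chromosome 7 from 102441695 to 102469771), the large subunit, had 76.2, 91.9 and 121 CPM in *APOE3* and 98.2, 118 and 166 CPM in *APOE4* libraries (0.41, SE 0.0978, adjusted p = 0.0121). For both subunits all 8 *APOE4* libraries exceeded the *APOE3* median, and *APOE3* 31 was the highest *APOE3* library. Tyms, which makes thymidylate, rose from 19.8 ± 3.65 to 25.8 ± 3.37 CPM (0.38, adjusted p = 0.0200), and Tk1, the thymidine salvage kinase, from 39.4 ± 10.3 to 55.2 ± 10.7 CPM (0.49, adjusted p = 0.0247). Dut (chromosome 2 from 125247190 to 125258608), which removes dUTP, had 12.5, 15.5 and 17.97 CPM in *APOE3* and 15.0, 18.2 and 26.8 CPM in *APOE4* libraries and was not called (0.26, SE 0.107, adjusted p = 0.117).

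Of the genes that rebuild chromatin and its methylation behind the fork, 3 of 4 rose. Uhrf1 (chromosome 17 from 56303321 to 56323486), which recognizes hemimethylated DNA, had 56.7, 71.3 and 97.9 CPM in *APOE3* and 78.2, 88.5 and 136 CPM in *APOE4* libraries (0.37 on the log2 scale, SE 0.109, adjusted p = 0.0301). Dnmt1, the maintenance DNA methyltransferase, had the highest CPM of the members and went from 184 ± 20.0 to 226 ± 26.9 CPM (0.30, adjusted p = 0.0122). Of the histone chaperone CAF-1, Chaf1a rose (0.32, adjusted p = 0.0366), with 52.5% of its exon bases opposite Ubxn6. Chaf1b (chromosome 16 from 93883901 to 93906115) had 14.9, 20.5 and 26.5 CPM in *APOE3* and 18.1, 23.2 and 34.4 CPM in *APOE4* libraries and was not called (0.28, SE 0.119, adjusted p = 0.126). Both genotypes of Chaf1b spread widely, 1.78-fold among *APOE3* and 1.90-fold among *APOE4* libraries.

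**Figure D2:**
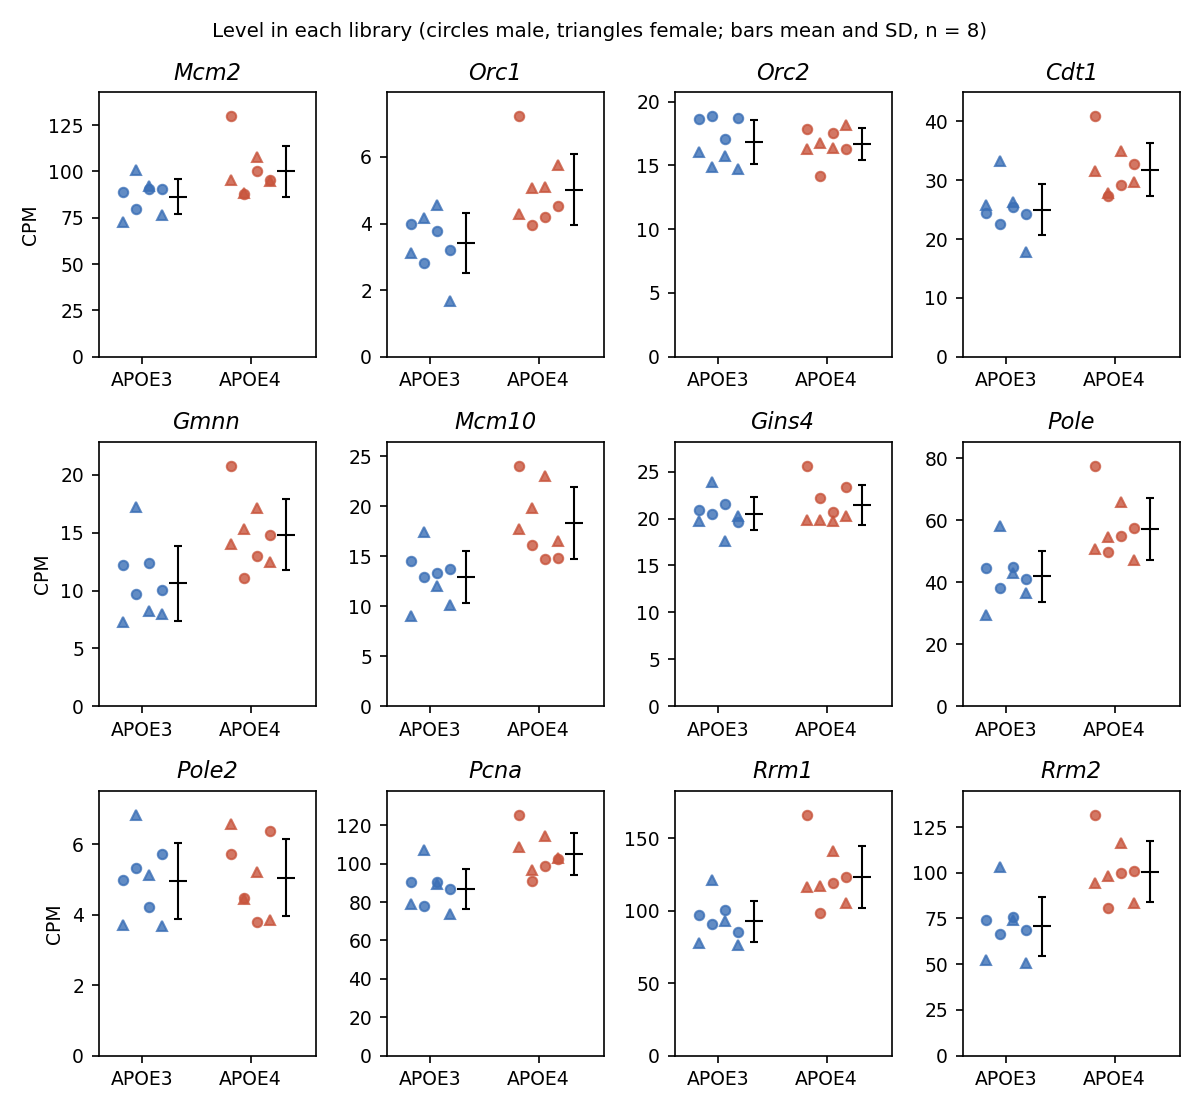
Level in CPM of 12 replication genes in each of the 16 libraries, male as circles and female as triangles, with the mean and SD of 8 libraries beside each genotype. Orc1, Mcm10, Pole, Rrm1 and Rrm2 sit higher in *APOE4*, while Orc2, Gins4 and Pole2 overlap.

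Levels per length ordered the members differently from fold change. In mean CPM per kilobase of exon, Pcna led at 40.0, followed by Rrm2 at 30.9 and Dnmt1 at 27.8, and Orc1 was lowest at 1.21. The Mcm2 to Mcm7 subunits, which form a ring with 1 copy of each, lay between 13.4 (Mcm2) and 25.6 (Mcm3). The 3 listed polymerase delta subunits lay between 11.1 and 18.8. The listed polymerase epsilon subunits were lower, at 1.74 (Pole2) and 4.44 (Pole), as were polymerase alpha and primase at 2.17 to 4.86. Subunits outside the list do not keep this order, with Pold4 at 30.7, Pole3 at 15.3 and Pole4 at 5.53. Exon length here joins all annotated exons of a gene, so these values depend on the annotation as well as on RNA.

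From the lowest to the highest library, each genotype spanned more than the difference between the genotype means. The highest *APOE3* library exceeded the lowest by a median of 1.55-fold over the 49 members, from 1.17-fold for Rfc1 to 2.72-fold for Orc1, and the highest *APOE4* library exceeded the lowest by 1.55-fold, up to 2.47-fold for Gins1. *APOE3* 31 was the highest of its genotype at 37 members, and *APOE3* 33 and *APOE3* 30 were the lowest at 30 and 15. Among *APOE4* libraries, 35 was the highest at 42 members and 36 the lowest at 31. The CPM of all members summed to 1913 ± 241 in *APOE3* (1586 to 2345) and 2342 ± 312 in *APOE4* libraries (2012 to 2992), so the genotypes overlapped in total as well. The difference between these means was nevertheless larger than either SD.

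The libraries named above as highest or lowest stood at or near the ends of their genotype for transcripts of mitosis as well. A mitosis score, the mean log2 CPM of 23 genes of mitosis such as Mki67 and Cdk1, was 5.31 ± 0.42 in *APOE3* and 6.01 ± 0.31 in *APOE4* libraries. It was lowest in *APOE3* 30 and *APOE3* 33 (4.73 and 4.74), was 5.96 in *APOE3* 31 and was highest in *APOE4* 35 (6.50). Among *APOE4* libraries it was lowest in 43 (5.64), with 36 next (5.65). With this score as a covariate, 0 of the 49 members and 0 of the 12481 genes were called, and 3 members, Mcm5 (-0.16), Pold1 (-0.13) and Rpa1 (-0.13), had an unadjusted p under 0.05, compared with 6.88% of all genes. The log2 fold changes of 31 members then turned sign, with a median of -0.02 over the 49. Genotype and the score differ together in these cultures, so this fit does not separate them.

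**Figure D3:**
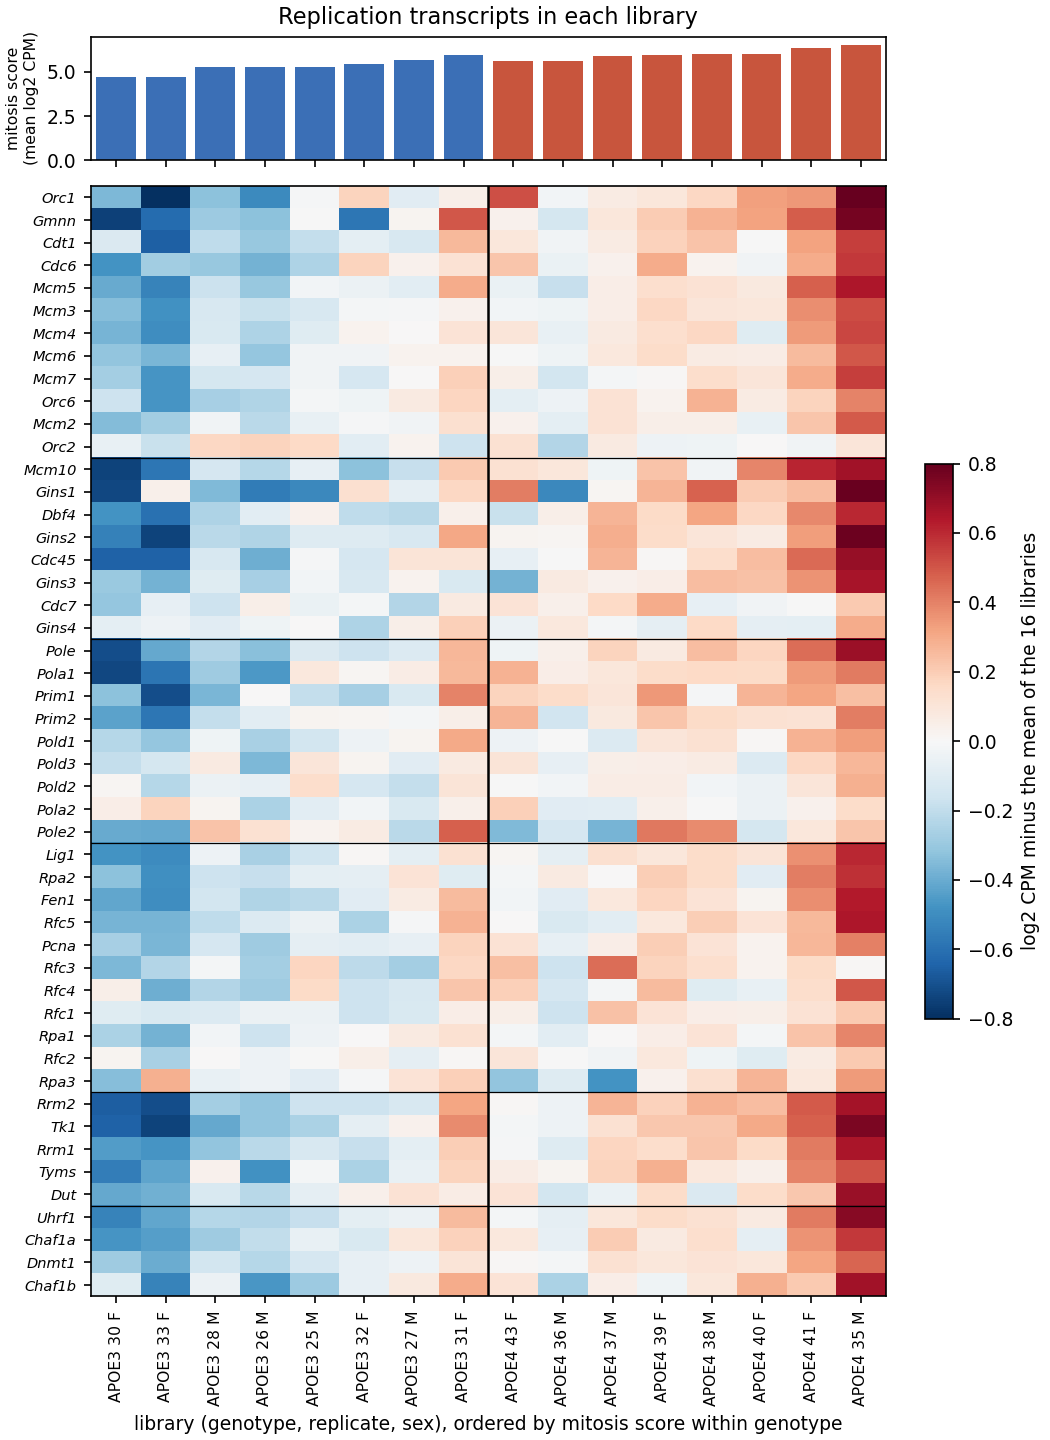
Replication transcripts in each library as log2 CPM minus the mean of the 16 libraries (colours, ending at the limits of the scale), with genes grouped by step and libraries ordered within genotype by the mitosis score shown as bars above. *APOE3* 30 and 33 are low and *APOE4* 35 and 41 high over most genes, while Orc2, Gins4, Pola2 and Rfc2 vary little.

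Ratios of paired transcripts within a library, which do not depend on depth, asked whether partners moved equally. Each was compared with a two-sided exact permutation test taken over every way to choose 8 of the libraries, and p values were adjusted over the 6 ratios. The log2 ratio of Pole to Pold1 had a lowest, median and highest of -0.92, -0.55 and -0.40 in *APOE3* and -0.46, -0.29 and -0.08 in *APOE4* libraries. It was higher in *APOE4* by 0.28 (exact permutation test, adjusted p = 0.0037, n = 8), and 8 of 8 *APOE4* libraries exceeded the *APOE3* median. The ratio of Mcm10 to Mcm2 was -3.00, -2.74 and -2.53 in *APOE3* and -2.76, -2.43 and -2.16 in *APOE4* libraries, higher by 0.31 (exact permutation adjusted p = 0.0140). Of the *APOE4* libraries, 7 of 8 exceeded the *APOE3* median of this ratio. The difference between genotypes was thus larger for Pole than for Pold1, and larger for Mcm10 than for Mcm2. Pole and Mcm10 had the largest changes of their steps, and Mcm2 (0.21) the smallest of the ring. The firing genes Cdc7 (0.18) and Gins4 (0.06) changed less than Mcm2, so these pairs do not compare whole steps or complexes.

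The remaining ratios gave smaller or opposite differences. Rrm2 to Rrm1 was higher in *APOE4* by 0.12 on the log2 scale (exact permutation adjusted p = 0.0268) in 8 of 8 *APOE4* libraries, from a mean of -0.41 ± 0.122 to -0.29 ± 0.0316, and the call was lost without *APOE4* 37, 40 or 41. Dbf4 to Cdc7 was higher by 0.26 (exact permutation adjusted p = 0.0459) in 6 of 8 *APOE4* libraries, from 0.30 ± 0.186 to 0.56 ± 0.258, and this call was lost in 10 of the 16 tests that left out a library. Cdt1 to Gmnn was 1.26 ± 0.320 in *APOE3* and 1.11 ± 0.146 in *APOE4* libraries and did not differ beyond the spread of the cultures (exact permutation adjusted p = 0.255). Pcna relative to Mki67, a proliferation marker outside the list, had a log2 ratio that differed by -0.43 in *APOE4* (exact permutation adjusted p = 0.0084), and 8 of 8 *APOE4* libraries were below the *APOE3* median.

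**Figure D4:**
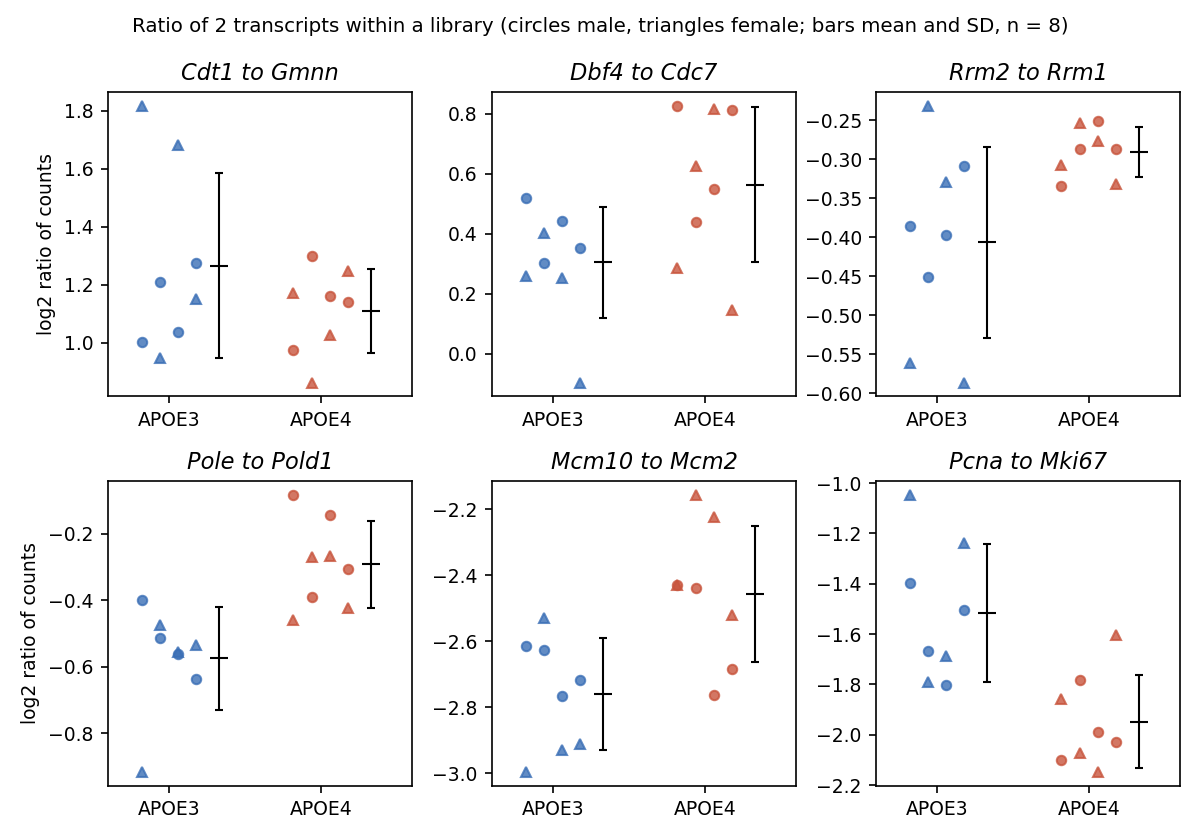
Log2 ratio of 2 transcripts' counts within each library for 6 pairs, male as circles and female as triangles, with the mean and SD of 8 libraries per genotype. Pole to Pold1 and Mcm10 to Mcm2 are higher in *APOE4*, Pcna to Mki67 is lower, and Cdt1 to Gmnn overlaps.

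Most members had positive values in both sexes. Within males 48 members had a log2 fold change above 0 (median 0.30), and within females 46 (median 0.30). With 4 against 4 libraries, 26 members in males and 23 in females had an unadjusted p under 0.05, compared with 14.2% and 19.5% of all genes. After adjustment by edgeR 0 members passed in males (0% of all genes) and 0 in females (0%). Mcm10 had the largest value in females (0.67) and 0.35 in males, and Gins1 the largest in males (0.63) and 0.35 in females.

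The interaction of genotype and sex was not called for any member or any other gene (0 of 12481, edgeR), and 1 member, Orc2, had an unadjusted p under 0.05, compared with 2.76% of all genes. Orc2 had a log2 fold change of -0.15 in males and 0.14 in females, a difference of 0.29. Without *APOE3* 31, 17 members were called in females, and without *APOE4* 35, a male library, 1 was. In males no library's removal gave a call.

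**Figure D5:**
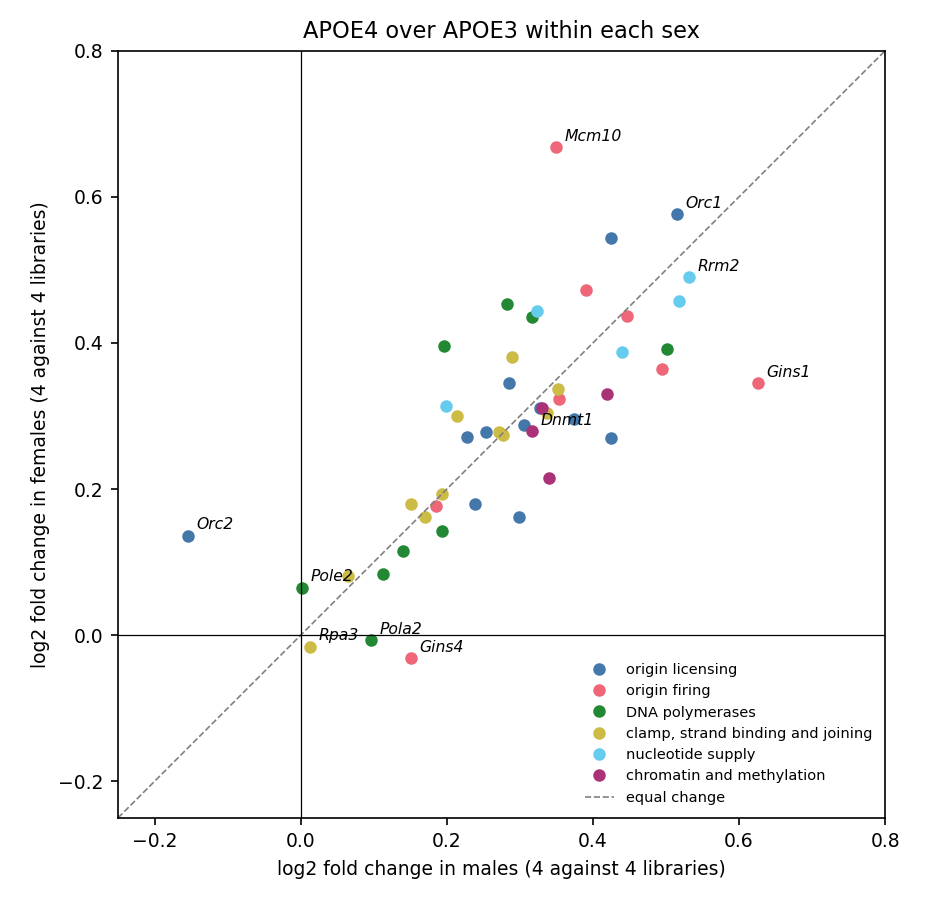
Log2 fold change of the 49 replication genes, *APOE4* over *APOE3*, in males (horizontal) and in females (vertical), coloured by step, with a dashed line where both are equal. Most genes lie near the line with positive values in both sexes. Orc2 is negative in males only, and Gins4, Pola2 and Rpa3 are negative in females only.

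A further 45 genes of replication outside the list, such as fork protection, topoisomerase and nucleotide enzymes, gave 12 called higher and 1 called lower, beside the 6.71% and 6.09% of all genes, and their median on the log2 scale was 0.19. The 12 fell to 6 without *APOE3* 30, *APOE4* 35 or *APOE4* 41, and to 7 without *APOE3* 26, 28 or 33. Top2a, the topoisomerase that untangles chromosomes, went from 157 ± 43.5 to 246 ± 46.4 CPM (0.65, SE 0.142, adjusted p = 0.00885). Pclaf, a Pcna binding factor, rose by 0.56 (adjusted p = 0.0149), Clspn, a fork mediator of the checkpoint, by 0.45 (adjusted p = 0.0118), and Dtl, which directs the destruction of Cdt1, by 0.42 (adjusted p = 0.0275). Samhd1, which breaks down the nucleotides that ribonucleotide reductase supplies, was the 1 gene called lower, from 162 ± 12.9 to 143 ± 14.1 CPM (-0.18, SE 0.058, adjusted p = 0.0453), and its call held in 5 of 16 fits that left out a library. Core origin subunits outside the list, Orc3 (0.02), Orc4 (0.14) and Orc5 (0.03), were not called.

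Mitosis genes moved further than replication genes. All 23 of the mitosis list were called higher, compared with 6.71% of all genes. This list was chosen with earlier results of these data known, so the count is a description only. The median log2 fold change was 0.68, with a range from 0.53 (Ndc80) to 0.86 (Hmmr), beside a median of 0.30 for the 49 replication genes. The largest replication value (Orc1, 0.55) was above the lowest mitosis value. Mki67 went from 255 ± 69.6 to 410 ± 80.5 CPM (0.68, SE 0.146, adjusted p = 0.00824). The difference between the lists was not tested. The ratio of Pcna to Mki67 compares 1 gene of each, and Pcna (0.27) lay below the median of the replication genes.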

How the data were processed

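RNA of 16 cultures of primary mouse brain endothelial cells, 8 *APOE3* and 8 *APOE4* from separate animals, was sequenced as 50-base read pairs after 17 PCR cycles from 100 ng of RNA. Read counts per gene, whole numbers without normalization, were deposited by the authors in 1 table of 39057 genes, and the submitters' processing notes name STAR, featureCounts, mm10 and hg38. The annotation release and the strand setting of the counts are not given in the sources used here. Of the 39056 mouse identifiers, 38872 were matched to GENCODE on GRCm38 for symbols and positions. All columns were mapped to a culture by label. Reads carry no molecular identifiers, so precision from depth covers counting error only.

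The counts were fitted in edgeR 4.0.16 (R 4.3.3) with filterByExpr, TMM, genotype as the single term, the quasi-likelihood F test and Benjamini-Hochberg adjustment over all 12481 genes tested, and the standard error was the log2 fold change divided by the square root of F. An edgeR fit of the 4 groups of genotype and sex gave the effects within each sex and the interaction. Ratios used counts plus 0.5. Alternatives were DESeq2 1.42.0 (size factors, Wald test), limma 3.58.1 voom, keeping all genes with a count, a minimum of 10 counts per library, sex or the mitosis score as a covariate, a ratio pseudocount of 5, log2 CPM with a prior count of 2, and each library left out in turn. Fits were tested on simulated data in which 200 genes changed by more than any member did here. This does not show how well changes of the size of the members' are found. Python 3.11.15 and matplotlib 3.10.9 served for tables and figures.

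The members, steps and lists were chosen with earlier results of these data known. Values over libraries are given, within each step, for the members with the largest and the smallest log2 fold change, and for Mcm2, Pcna, Cdt1, Gmnn, Rrm1 and Rrm2. Of other replication genes the rule names up to 4 with the largest change in each direction among those called, of mitosis Mki67, and of each marker list the most abundant gene; 1 marker list is not reported here. Other genes named (Emcn, further marker genes, Orc3, Orc4, Orc5, Pole3, Pole4, Pold4, Ndc80, Hmmr) and the promoters printed were chosen after their values were seen. Promoter windows are RefSeq's for GRCm38.p6, and 8 members had no window in the table used.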

Additional observations from a re-analysis of the deposited data

Results flagged for a closer look

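Levels of each member and each ratio were screened in both genotypes, 110 groups of 8 libraries in all, for a highest or lowest library whose gap to its neighbour divided by the group's range exceeded Dixon's 95% critical value, and chance marks about 1 in 20 such groups. The screen marked 8. Among *APOE4* libraries, replicate 35 stood high for Gins2 (32.6 CPM), Pold2 (43.2 CPM) and Dut (26.8 CPM), and replicate 36 stood low for Orc2 (14.2 CPM) and Rfc1 (46.4 CPM). Among *APOE3* libraries, replicate 33 stood low for Rfc2 (37.0 CPM) and for the log2 ratio of Dbf4 to Cdc7 (-0.10), and replicate 30 stood low for the log2 ratio of Pole to Pold1 (-0.92).

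*APOE4* 35 and 36 are the libraries with the highest and the lowest levels of their genotype over most members, and *APOE3* 33 and 30 are those with the lowest. Without *APOE4* 35, Gins2 was not called, while Pold2 and Dut were not called with or without it. What sets these libraries apart was not tested.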

How the results depend on the processing

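The number of members called higher was 26 to 30 with the size factors of DESeq2, all genes with a count kept, a minimum of 10 counts per library, sex as a covariate, DESeq2's Wald test and limma voom, and 0 members were called lower under any of them. The number of members called did depend on the mitosis score as a covariate and on single libraries. With the score, 0 members, 0 other replication genes and 0 of all genes were called, and the log2 fold change of 31 members turned negative: Pole2 -0.35, Mcm5 -0.16, Pold1 -0.13, Rpa1 -0.13, Rfc5 -0.12, Fen1 -0.12, Dut -0.12, Gmnn -0.11, Mcm7 -0.11, Chaf1b -0.10, Tk1 -0.10, Uhrf1 -0.084, Mcm2 -0.073, Cdc45 -0.064, Chaf1a -0.061, Orc6 -0.061, Gins2 -0.056, Mcm4 -0.049, Lig1 -0.048, Gins4 -0.047, Mcm3 -0.022, Mcm6 -0.018, Pola1 -0.017, Pold3 -0.010, Pole -0.0093, Pold2 -0.0039, Rfc2 -0.0036, Gins3 -0.0028, Rrm2 -0.0019, Rfc4 -0.0016 and Rrm1 -0.00016. The score was itself higher in *APOE4*, and the cause was not tested. Over the 16 fits that each left out 1 library, 9 to 36 members, 6 to 16 other replication genes and 846 to 2127 of all genes were called, 0 to 17 members within females, and 0 within males or for the interaction. In the same fits the log2 fold change of Orc2 ran from -0.040 to 0.015, of Pole2 from -0.034 to 0.11 and of Rpa3 from -0.050 to 0.059, so none of these had a stable sign. Of the 784 log2 fold changes in those fits, 636 kept their direction and call, 114 lost the call, 20 gained one and 14 turned sign. Ratios ranged from 0.20 to 0.32 for Dbf4 to Cdc7 (call lost in 10 fits), 0.090 to 0.14 for Rrm2 to Rrm1 (lost without *APOE4* 37, 40 or 41), 0.23 to 0.31 for Pole to Pold1, 0.26 to 0.35 for Mcm10 to Mcm2, -0.48 to -0.36 for Pcna to Mki67 and -0.20 to -0.08 for Cdt1 to Gmnn, and neither a pseudocount of 5 nor log2 CPM changed a call. No paired analysis was possible because the genotypes share no replicate numbers. Orc1 and Gins1 rest on the fewest counts of the members, and whether depth limits their precision was not tested.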
